A study of Danio rerio with 6 samples.

Results

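The genes described here are 7 transcription factor genes that act in the early zebrafish heart: *gata4*, *gata5*, *gata6*, *hand2*, *tbx5a*, *tbx20* and *mef2cb*. They were chosen by name from the 23150 genes of the count table, and a row was found for each of the 7. The table holds 6 RNA-seq libraries, each from a pool of entire 18 hpf zebrafish embryos freed of chorion and yolk. Of these libraries, 3 came from *dusp2/dusp6* double mutant embryos and 3 from wildtype embryos. The mutants were *dusp2um287/um287;dusp6um286/um286*, both alleles being deletions made with guide RNAs, and their parents carried the same double homozygous genotype. Neither a maternal nor a zygotic intact copy of these phosphatase genes was therefore present. Wildtype embryos were *dusp2*+/+;*dusp6*+/+, and the wildtype stock named in the study's methods is Ekkwill. The paper reports that a large part of the embryos from such double mutant crosses stalled at the first cell division and died during gastrulation. The mutant pools therefore came from the surviving embryos of these crosses. Genotype, parentage, clutch, genetic background and this survival cannot be told apart in this design. All libraries are labelled 18 hpf, and how closely the genotypes matched in exact stage was not tested.

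The Gata proteins are zinc finger factors, Hand2 is a basic helix-loop-helix factor, Tbx5a and Tbx20 carry a T-box and Mef2cb a MADS-box. In vertebrates such factors bind near one another at genes of the heart muscle, and the early heart field is commonly defined by their joint expression in the anterior lateral plate mesoderm. None of them is restricted to the heart. In zebrafish, *gata5* also acts in endoderm, *hand2* in pharyngeal arches and fin buds, *tbx5a* in the pectoral fin field and *tbx20* in cranial motor neurons, and Mef2c genes are active in somite muscle. Dusp6 and Dusp2 remove phosphate groups from ERK, a kinase that carries FGF signals, and FGF signaling is known to promote heart field gene expression in zebrafish. The comparison of the genotypes asks how loss of both phosphatases affected gene expression across the embryo.

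Expected counts summed to between 36310355 and 45161306 per library, and the ranges of the 2 genotypes overlapped. Levels are given as CPM, counts per 1000000 of the library after TMM scaling, a correction for differences in library composition. Both targeted genes checked against the genotype labels, with 1188 to 1412 *dusp6* counts per mutant library against 7913 to 10509 per wildtype library, and 3 to 7 *dusp2* counts per mutant library against 35 to 71 per wildtype library. Mutant library D stood apart from the other mutant libraries: a chi-square per degree of freedom of 12.7 and 15.5 separated it from mutants C and A, against 4.33 between mutants A and C and 3.62 to 5.56 between wildtype libraries. The number of regulators that differed and the values of some genes are therefore also given without it. In whole embryos, fewer cells of a type and less RNA per cell cannot be told apart.

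Between the genotypes, 5 of the 7 regulators differed, with *gata4*, *gata5* and *hand2* higher and *tbx5a* and *mef2cb* lower in the mutants. The test was edgeR's quasi-likelihood test at an adjusted p under 0.05, with p-values adjusted over all 20021 genes tested, among them the 7 regulators. Over all genes tested, 34.5% differed at that threshold, 17.4% being higher and 17.1% lower in the mutants, so differing was common in these libraries. With a fold change over 2, the size the study's methods ask for, required as well, a rule that 4.95% of all genes tested met, *tbx5a* was called and the other 6 regulators were not. Mutant and wildtype libraries did not overlap for the 5 genes that differed, and such separation was found for 49.1% of all genes tested. The median log2 fold change of the 7 regulators was 0.12, beside a median of -0.00065 over all genes tested.

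**Figure D1:**
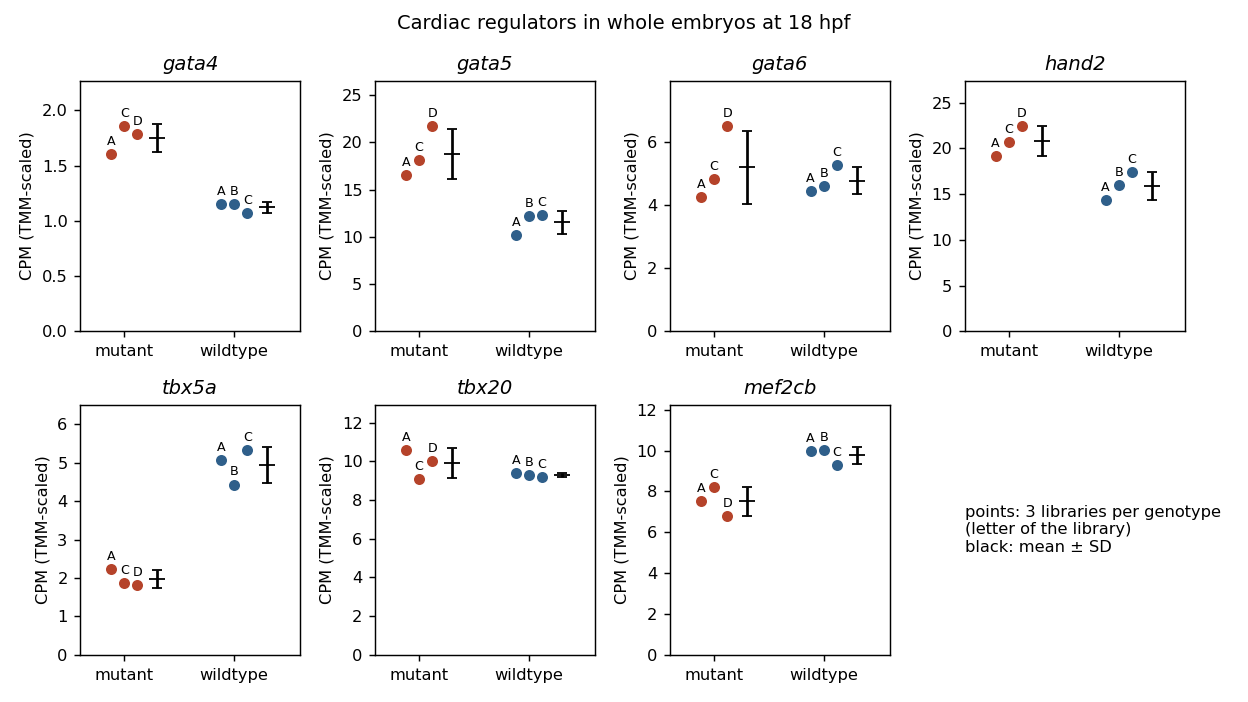
Level of each regulator in each library, in CPM after TMM scaling, with the mutant libraries left of the wildtype libraries. Points are single libraries with their letter, black marks are the mean ± SD (n = 3 per genotype), and each panel has its own axis starting at 0. In the *tbx5a* panel the mutant libraries lie between 1.82 and 2.23 CPM, below the lowest wildtype library at 4.43 CPM, whereas the genotypes overlap for *gata6* and *tbx20*.

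The largest change among the 7 genes was that of *tbx5a*, the T-box gene with which zebrafish pectoral fin development begins and which the heart needs for looping. Its level was 2.23, 1.88 and 1.82 CPM in mutant libraries A, C and D, against 5.07, 4.43 and 5.33 CPM in wildtype libraries A, B and C. No mutant library reached the lowest wildtype one, and the spread within each genotype was small beside the gap. The means were 1.97 ± 0.222 CPM in mutants and 4.94 ± 0.464 CPM in wildtype (SD, n = 3 each). The log2 fold change was -1.32 (adjusted p = 5.6e-05, standard error 0.142), a level in wildtype 2.503 times that in mutants (95% interval 2.02 to 3.10). In counts, mutant libraries held 68 to 93 *tbx5a* reads and wildtype libraries 166 to 245, from which counting alone gives an error of 6.39% to 12.1% per library. Every *tbx5a* count was whole to within 0.005, which leaves little sign of reads shared with other genes. Across 12 other settings, which changed the scaling, the filter or the test or left out 1 library, the log2 fold change ranged from -1.42 to -1.27. Of the log2 fold changes of all genes tested, 1.503% were at or below that of *tbx5a*.

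Of the 3 Gata genes of heart and endoderm, *gata4* and *gata5* passed the test and *gata6* did not. *gata5*, whose loss in zebrafish reduces both heart muscle and endoderm, was at 16.5, 18.1 and 21.7 CPM in mutants A, C and D, against 10.1, 12.2 and 12.3 CPM in wildtype A, B and C. All 3 mutant libraries lay above the wildtype range, with mutant D highest. The log2 fold change of *gata5* was 0.70 (adjusted p = 6.5e-04, standard error 0.109), or 1.62-fold (95% interval 1.37 to 1.91). Without mutant D it was 0.58, with an adjusted p of 1.4e-04, and it ranged from 0.58 to 0.78 across the 12 settings, with adjusted p from 5.2e-08 to 0.0055.

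*gata4*, a factor of heart, liver and gut development, rested on few reads, with 67 to 81 counts per mutant library and 43 to 49 per wildtype library. Its level was 1.61, 1.86 and 1.79 CPM in mutants A, C and D, against 1.15, 1.15 and 1.07 CPM in wildtype A, B and C. The genotypes were separate, and the log2 fold change was 0.64 (adjusted p = 0.021, standard error 0.186), or 1.56-fold with a wide 95% interval of 1.18 to 2.07. In none of the 6 libraries was the *gata4* count whole before rounding, so part of its reads were shared with other transcripts and its value is the less certain for it. It missed the threshold in 4 of the 12 settings: DESeq2's Wald test gave an adjusted p of 0.059, and leaving out mutant C, wildtype A or wildtype C gave 0.068, 0.05001 and 0.076. The range over the 12 settings was 0.016 to 0.076, and the estimate itself moved from 0.60 to 0.70 at most.

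For *gata6*, the third Gata gene of this group, no difference between the genotypes was found. It was at 4.27, 4.84 and 6.52 CPM in mutants A, C and D, against 4.45, 4.62 and 5.27 CPM in wildtype A, B and C. Mutant A lay below the wildtype libraries and mutant D above them, so the mutants enclosed the wildtype range. The log2 fold change was 0.12 (adjusted p = 0.60, standard error 0.155), with a 95% interval from -0.23 to 0.46, which leaves room for changes up to 1.37-fold. Without mutant D the sign turned, to -0.079. All *gata6* counts were whole.

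*hand2*, which zebrafish need to form heart muscle and fin buds from lateral plate cells, was moderately higher in the mutants. It was at 19.1, 20.7 and 22.4 CPM in mutants A, C and D, against 14.4, 16.0 and 17.4 CPM in wildtype A, B and C. The lowest mutant library exceeded the highest wildtype library by less than the range within either genotype. The log2 fold change was 0.38 (adjusted p = 0.0057, standard error 0.0854), or 1.302-fold (95% interval 1.14 to 1.48). It was 0.32 without mutant D (adjusted p = 0.0078) and lay between 0.31 and 0.45 across the 12 settings, with adjusted p up to 0.031.

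*tbx20*, a T-box factor of heart muscle and cranial motor neurons, did not pass the test. Its levels were 10.6, 9.10 and 10.04 CPM in mutants A, C and D, against 9.42, 9.29 and 9.18 CPM in wildtype A, B and C. Mutant C lay below the wildtype libraries and both other mutants above them. The means, 9.91 ± 0.754 CPM in mutants and 9.30 ± 0.117 CPM in wildtype (SD, n = 3 each), gave a log2 fold change of 0.09 (adjusted p = 0.43) with a 95% interval from -0.10 to 0.28. The upper end corresponds to 1.21-fold, so a change of the size seen in *gata5* lay outside this interval. The T-box genes *tbx5a* and *tbx20*, both heart factors, thus had intervals that did not meet, although the difference between them was not tested.

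*mef2cb*, which acts with its duplicate *mef2ca* in zebrafish heart muscle differentiation, was lower in the mutants. It was at 7.53, 8.21 and 6.81 CPM in mutants A, C and D, against 9.98, 10.04 and 9.27 CPM in wildtype A, B and C. Mutant D was lowest, and every mutant library lay below every wildtype one. The log2 fold change was -0.37 (adjusted p = 0.010, standard error 0.0942), a level in wildtype 1.296 times that in mutants (95% interval 1.12 to 1.495). Without mutant D it was -0.31 (adjusted p = 0.017), and adjusted p reached 0.040 at most across the 12 settings.

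**Figure D2:**
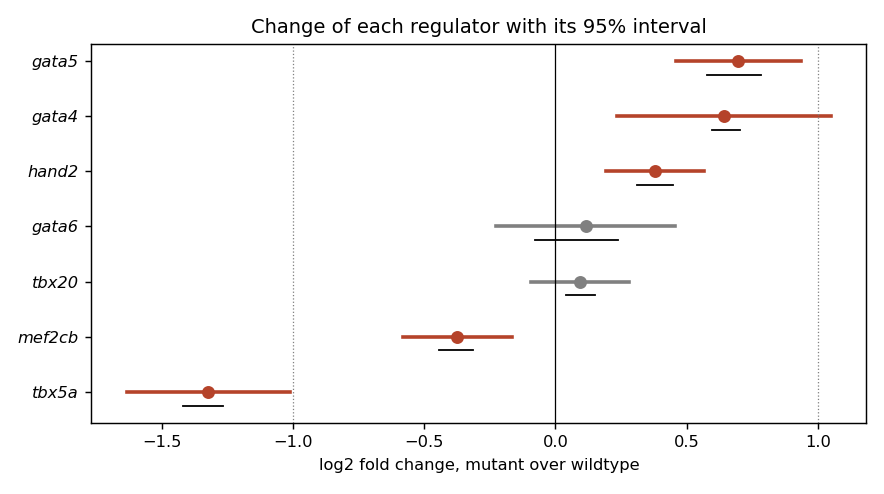
Log2 fold change of each regulator, mutant over wildtype, from edgeR's quasi-likelihood test. Coloured bars are 95% intervals (red where the adjusted p is under 0.05, grey otherwise), thin black lines below them span the values with each library left out in turn, and dotted lines mark a fold change of 2. The interval of *tbx5a*, from -1.63 to -1.01, lies wholly beyond the 2-fold line, and that of *gata6* spans 0.

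Among the 5 regulators that differed, mutant D held the most extreme mutant level for *gata5*, *hand2*, *tbx5a* and *mef2cb*, and mutant C for *gata4*. Relative to the wildtype mean of each gene, *gata5* was higher by 0.52, 0.65 and 0.91 log2 units in mutants A, C and D. In the same order, *tbx5a* stood at -1.15, -1.40 and -1.45 log2 units and *mef2cb* at -0.38, -0.25 and -0.52. The directions therefore held in each mutant library, while the sizes differed between them. Leaving out mutant D left 3 regulators higher and 2 lower past the same threshold, where 6774 of 20533 genes tested differed.

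Relatives of these regulators within the Gata, Tbx and Mef2 families were read from the same fit. The list of 17 relatives was limited to genes of lateral plate, blood, ectoderm and muscle and held no T-box genes of the tailbud. With the regulators included, 6 Gata genes could be tested, of which 5 were higher in the mutants and none lower, beside 17.4% of all genes tested that were higher. Of 10 Tbx genes tested, none was higher and 3 were lower, *tbx5a*, *tbx2b* and *tbx18*. Of 4 Mef2 genes tested, 3 were lower, beside 17.1% of all genes tested. The genes *gata2b* and *mef2b* fell under the filter on low counts, and no row was found for *tbx3b*.

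The relatives that rose were *gata1a*, *gata2a* and *gata3*, the Gata genes of blood and ectoderm. *gata1a*, which drives red cell development, was at 16.3, 18.1 and 24.4 CPM in mutants A, C and D, against 10.7, 10.6 and 11.3 CPM in wildtype A, B and C. Its log2 fold change was 0.85 (adjusted p = 5.0e-04, standard error 0.127), and 0.66 without mutant D. *gata2a* and *gata3* had log2 fold changes of 0.80 and 0.54, and of 0.65 and 0.43 without mutant D. As for *gata5*, mutant D was the highest library for each of the 3 genes. No mutant library overlapped the wildtype range, a separation found for 49.1% of all genes tested.

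In the Mef2 family the change of *mef2ca* was larger than that of *mef2cb* in estimate. *mef2ca* was at 50.9, 50.1 and 35.9 CPM in mutants A, C and D, against 78.6, 73.1 and 71.1 CPM in wildtype A, B and C, a log2 fold change of -0.70 (adjusted p = 5.3e-04, standard error 0.106). *mef2d* had a log2 fold change of -0.37 (adjusted p = 0.0030), and *mef2aa*, at -0.13, did not pass. Without mutant D, the log2 fold change was -0.56 for *mef2ca* and -0.28 for *mef2d*. The 95% intervals of *mef2ca*, from -0.93 to -0.47, and *mef2cb*, from -0.58 to -0.17, overlapped, and the difference between both genes was not tested.

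The T-box relatives had smaller estimates than *tbx5a*, and these differences were not tested. *tbx5b*, the duplicate of *tbx5a*, was scarce, at 0.671, 0.504 and 0.801 CPM in mutants A, C and D, against 0.939, 0.854 and 0.849 CPM in wildtype A, B and C. All mutant libraries lay below the wildtype ones, but the log2 fold change of -0.42 did not pass (adjusted p = 0.25, standard error 0.268), and its 95% interval from -1.01 to 0.16 shows how little its low counts can resolve. *tbx18*, a gene of somites and of heart-associated mesoderm, had a log2 fold change of -0.59 (adjusted p = 0.011), which was -0.42 without mutant D. *tbx2b* was lower by a narrow margin, with a log2 fold change of -0.26 (adjusted p = 9.2e-04). *tbx1*, a gene of pharyngeal mesoderm, did not pass, at -0.08 (adjusted p = 0.44).

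**Figure D3:**
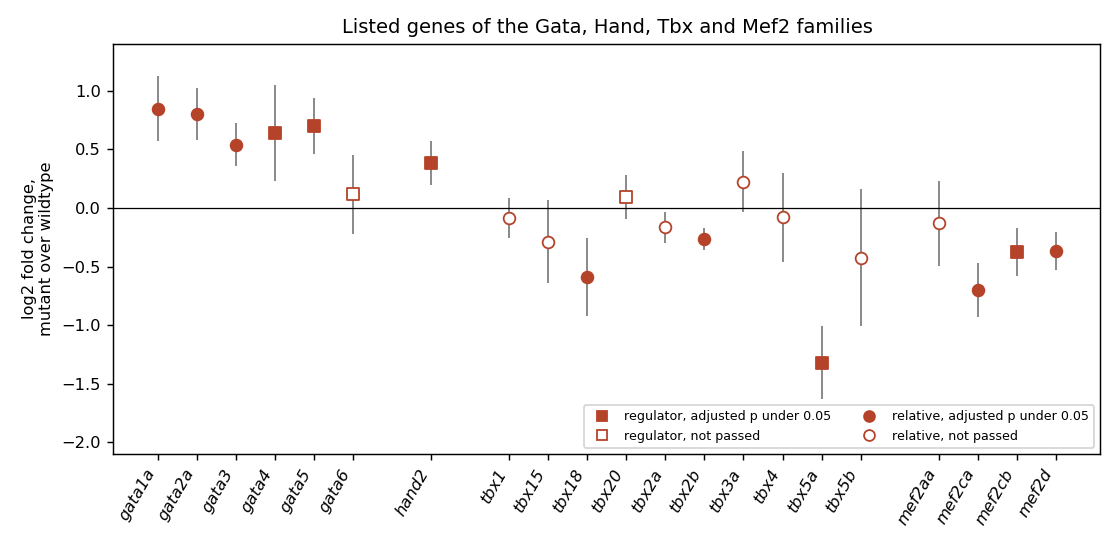
Log2 fold changes, mutant over wildtype, of the listed Gata, Hand, Tbx and Mef2 genes that could be tested, with 95% intervals as vertical lines. Squares are the 7 regulators and circles their relatives, filled where the adjusted p is under 0.05. The 5 filled Gata symbols lie between 0.54 and 0.85, and the filled Tbx and Mef2 symbols lie between -1.32 and -0.26.

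Partners and cofactors of these regulators were read next. Of 13 listed genes, 11 could be tested, and 1 was higher and 2 were lower in the mutants, beside 17.4% higher and 17.1% lower among all genes tested, with a median log2 fold change of -0.01. *nkx2.5*, the homeobox gene that marks heart precursors together with *gata4* and *hand2*, was at 1.73, 1.88 and 2.00 CPM in mutants A, C and D, against 1.503, 1.76 and 1.98 CPM in wildtype A, B and C. These ranges overlapped, and the log2 fold change was 0.09 (adjusted p = 0.73, standard error 0.179). *isl1*, a marker of late-added heart cells that also labels many neurons, was higher by 0.21 (adjusted p = 0.013), a call lost without wildtype A or C (adjusted p = 0.054 and 0.056, the range over the 12 settings being 0.012 to 0.056). *hey2* (log2 fold change -0.35, adjusted p = 0.0049), a Notch target that limits heart muscle growth in zebrafish, and *casz1* (-0.45, adjusted p = 0.0019), a zinc finger factor, were lower. Rows were not found for *myocd* and *srfb*. The Gata cofactors *zfpm1*, *zfpm2a* and *zfpm2b* did not pass, with log2 fold changes from -0.17 to 0.18.

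Signals and receptors that pattern the heart field changed in both directions. Of 14 listed genes 11 were tested, and 5 were higher and 2 lower, beside 17.4% and 17.1% of all genes tested, with a median log2 fold change of 0.20. *fgf8a*, the FGF ligand required for early heart gene expression in zebrafish, was at 36.9, 36.4 and 39.4 CPM in mutants A, C and D, against 27.3, 27.1 and 27.8 CPM in wildtype A, B and C. Its log2 fold change was 0.46 (adjusted p = 1.1e-04, standard error 0.0543). The receptor gene *fgfr1a* was higher by 0.37, the apelin receptor gene *aplnrb* by 0.53 and the Nodal coreceptor gene *tdgf1* (named *oep* in the table) by 0.53, on the log2 scale. Without mutant D, *tdgf1* was higher by 0.42. *bmp2b* was also higher, by 0.33. By in situ hybridization, a measure unlike read counts, the paper detected no change of *fgf3*, *fgf8*, *bmp2b* or *bmp4* in the double mutants. In the libraries, *fgf3* (log2 fold change 0.20, adjusted p = 0.093) and *bmp4* (-0.098, adjusted p = 0.54) did not pass. The paper also saw no difference in phosphorylated ERK or in its target genes *pea3* and *erm* during early segmentation, an earlier stage than that of these libraries. The Nodal genes *ndr1* and *ndr2* fell under the filter on low counts, and no row was found for *apela*.

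*aldh1a2*, which makes retinoic acid and restricts the size of the heart field while allowing the fin field to form, showed the largest fall of that list. It was at 44.96, 40.7 and 31.7 CPM in mutants A, C and D, against 71.7, 75.5 and 71.6 CPM in wildtype A, B and C. Its log2 fold change was -0.90 (adjusted p = 6.1e-05, standard error 0.0976), and -0.77 without mutant D. *s1pr2*, the receptor gene needed for heart precursors to meet at the midline, was lower by a log2 fold change of -0.32.

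Genes of the pectoral fin and pharyngeal arches, where *tbx5a* and *hand2* also act, were read in the same way. Of 11 tested genes 2 were higher and 1 was lower, where 34.5% of all genes tested differed, with a median log2 fold change of -0.041. The gene that fell was *fgf24*, an FGF ligand of the fin bud. Its level was 1.68, 1.49 and 1.01 CPM in mutants A, C and D, against 2.20, 2.80 and 2.57 CPM in wildtype A, B and C. Its log2 fold change was -0.85 (adjusted p = 0.0086, standard error 0.206), and -0.68 without mutant D. *fgf10a*, a fin mesenchyme ligand, did not pass, at -0.22 (adjusted p = 0.18), nor did *prdm1a*, at 0.11 (adjusted p = 0.061). *sall4*, a zinc finger gene with wide expression, rose by 0.64, and *edn1*, an arch ligand above *hand2*, by 0.48, a call that failed in 6 of 12 settings (adjusted p from 0.023 to 0.089).

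Heart muscle markers were used to check the cardiac label. Of 6 defining markers, *nppa* had no row and the other 5 were detected, with a summed level of 15.0 to 18.4 CPM in mutant libraries and 18.5 to 22.1 CPM in wildtype libraries. *myl7*, the regulatory myosin light chain of heart muscle, was at 2.33, 2.66 and 2.48 CPM in mutants A, C and D, against 2.58, 1.90 and 2.66 CPM in wildtype A, B and C. Its genotypes overlapped, with a log2 fold change of 0.06 (adjusted p = 0.80, 95% interval -0.31 to 0.43). *vmhc*, the ventricular myosin heavy chain, was lower by a log2 fold change of -0.35 (adjusted p = 0.017, and 0.065 without wildtype A and 0.051 without wildtype C, the range over the 12 settings being 0.014 to 0.065). *cmlc1*, another cardiac light chain, was lower by -1.10 (adjusted p = 0.0022). Over the full list of 13 heart muscle genes, 11 could be tested, and these 2 were the ones that differed, where 34.5% of all genes tested did, the median log2 fold change being -0.057. That median is the value of *actc1a*. In mutants the mean levels of *actc1a* and *tpm4a* were 591 and 243 CPM, against 2.49 CPM for *myl7*. How much of the RNA of these 2 genes came from heart muscle was not tested. Without wildtype A or wildtype C, 1 of the 11 differed, where 5016 of 20539 and 5082 of 20286 genes tested did. No tested heart muscle gene was higher past the threshold, which does not show that none rose. The interval of *myl7* held the log2 fold change of 0.38 of *hand2*, and *myh6* had only 12 to 27 counts per library. Whether heart muscle genes changed with *gata4*, *gata5* and *hand2* was not tested.

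Skeletal muscle, where Mef2 genes are also expressed, was read beside the Mef2 genes. The 4 defining markers, *myod1*, *myog*, *mylpfa* and *smyhc1*, summed to 1449, 1453 and 876 CPM in mutants A, C and D, against 2034, 1801 and 1926 CPM in wildtype A, B and C. Mutant D, the lowest library for these markers, was also the lowest for *mef2cb*, *mef2ca* and *mef2d*. Of 11 skeletal muscle genes tested, 5 were lower and 1, *myf5*, was higher (log2 fold change 0.48), with a median of -0.52, where 34.5% of all genes tested differed. Of these 11 genes, 3 differed without wildtype A, 4 without wildtype C and 9 without mutant D, and 3 did in DESeq2's Wald test, against 6 with all libraries. Over all genes, 5016 of 20539 differed without wildtype A, 5082 of 20286 without wildtype C and 6774 of 20533 without mutant D. In DESeq2's Wald test, 6110 of 20021 genes did. *smyhc1*, the slow myosin heavy chain, had a log2 fold change of -0.62, and -0.42 without mutant D. *vmhc* and *cmlc1* were at their lowest in mutant D as well. The part of skeletal muscle RNA in the lower level of *mef2cb* was not tested.

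Endoderm and blood, in which Gata genes act, were read in the same way. Of the 4 defining endoderm markers, *sox32* had no row, and the other 3, *sox17*, *foxa1* and *foxa3*, summed to 36.3 to 41.0 CPM in mutant libraries and 31.6 to 35.1 CPM in wildtype libraries, without overlap. Of the 3, *foxa3* was higher past the threshold, whereas *foxa1* had a log2 fold change of 0.04 (adjusted p = 0.71) and overlapping libraries. *sox17*, a defining endoderm factor, was near the limit of detection, at 0.285 ± 0.0187 CPM in mutants and 0.143 ± 0.0404 CPM in wildtype (SD, n = 3 each; adjusted p = 0.083). *foxa2* and *foxa3*, forkhead factors of endoderm and midline, rose by 0.36 and 0.40 on the log2 scale. Over the 11 endoderm and gut genes tested, 3 were higher and 2 lower (median log2 fold change 0.042), beside 17.4% and 17.1% of all genes tested, the genes that were lower being *prox1a* (-0.79) and *pdx1* (-0.51, a call lost in 6 of 12 settings, adjusted p from 0.033 to 0.12). *hnf4a*, a nuclear receptor of gut and liver, was higher by 0.51 (adjusted p = 0.022), a call lost without mutant D, wildtype A or wildtype C (adjusted p = 0.073, 0.068 and 0.077, the highest over the 12 settings). Without wildtype A or wildtype C, 3 of the 11 genes differed, against 5 with all libraries. Over all genes, 5016 of 20539 and 5082 of 20286 differed in these settings.

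Of 13 endothelium and blood genes tested, 6 were higher and none was lower, beside 17.4% and 17.1% of all genes tested. The list was fixed as a whole, and its division into red cell, blood progenitor and vessel genes was not. In that division, all 4 red cell genes and both blood progenitor genes rose, with log2 fold changes from 0.36 to 0.99. None of the 7 vessel genes, with *etv2* counted among them, passed the test, with log2 fold changes from -0.22 to 0.32. *tal1*, a blood progenitor factor, rose by 0.51 and *slc4a1a*, a red cell membrane transporter gene, by 0.99. These values stand beside the rises of *gata1a* and *gata2a* given above, and the part of blood cell RNA in the rises of the cardiac Gata genes was not tested. The 6 defining markers of endothelium and blood summed to 131 to 151 CPM in mutant libraries and 116 to 129 CPM in wildtype libraries, 2 of the 6 being higher past the threshold. Intermediate mesoderm, which borders the heart and fin fields, gave 1 higher and 1 lower gene of 6 tested, beside 17.4% and 17.1% of all genes tested. The higher gene was *lhx1a* (0.71) and the lower *pax2a* (-0.21, adjusted p = 0.018, and from 0.0029 to 0.070 over the 12 settings). Without mutant C, 1 of these 6 genes differed, where 5591 of 20313 genes tested did. The wildtype mean of *pax2a* was 66.1 CPM, against 7.42 CPM for *pax8* and 6.43 CPM for *osr1*. How much of the *pax2a* and *lhx1a* RNA came from intermediate mesoderm was not tested.

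**Figure D4:**
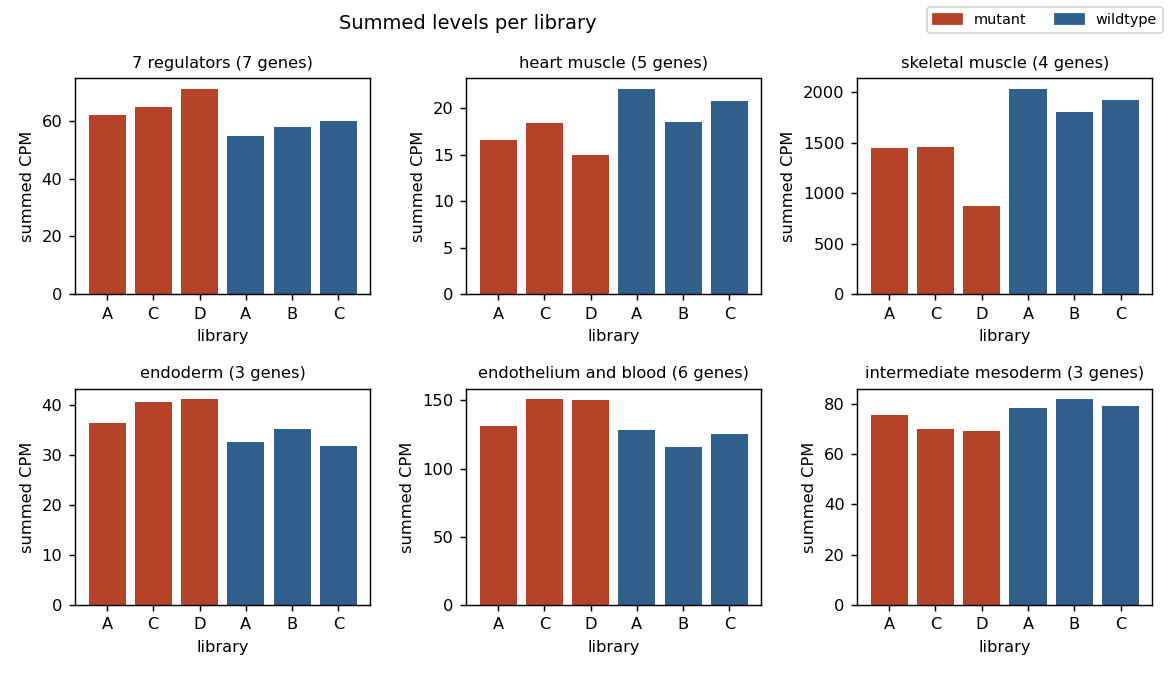
Summed CPM per library of the 7 regulators and of the defining markers of 5 tissues that could be tested, with mutant libraries A, C and D left of wildtype libraries A, B and C. Bars start at 0 and each panel has its own axis. Skeletal muscle markers are lowest in mutant D at 876 CPM, and the 7 regulators sum to 61.9 to 71.1 CPM in mutants against 54.6 to 59.8 CPM in wildtype. In that sum *gata5* and *hand2* have the highest means, 18.8 and 20.8 CPM in mutants, whereas *tbx5a* and *mef2cb* were lower in mutants than in wildtype.

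For each regulator that differed, the genes with the most similar pattern over the 6 libraries were found by the root mean square difference of log2 CPM centred on each gene's mean, taking only genes whose mean reached 5 CPM. *gata5* was matched most closely by *hsd17b2* and *shisa2*, at 0.042 and 0.045 log2 units. *gata4* was nearest to *capn2l*, at 0.039, and *hand2* to *nid2a*, at 0.032. *mef2cb* was nearest to *cldnh*, at 0.031. The pattern of *tbx5a* had no match as close: its nearest genes, *zgc:171242* and *si:dkey-149i7_2*, lay at 0.078 and 0.095 log2 units. This distance largely follows the fold change, so close matches of *tbx5a* had to be lower in the mutants. Few genes were near it, as 1.503% of all genes tested had a log2 fold change at or below its own. Each search ran over 12141 or 12142 genes, which by their mean level included *gata5*, *hand2*, *tbx20* and *mef2cb* but not *gata4*, *gata6* or *tbx5a*.

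Genes near the regulators on the chromosomes were also read, a choice made after the values were seen. In the gene order of assembly GRCz12tu, the nearest tested gene on each side of the 7 regulators gave 14 neighbours, of which 2 passed the test, where 34.5% of all genes tested did. Both neighbours of *tbx5a*, *ddx54* (log2 fold change -0.02) and *tbx3a* (0.22, adjusted p = 0.17), did not pass. The nearest tested genes to *gata5*, *prpf6* and *hck*, lay 4 and 2 places away and were at 0.03 and -0.03. Those of *gata4* lay 9 and 4 places away. The neighbours that passed were *hmgb2a* beside *hand2* (-0.28) and *herpud2* beside *tbx20* (0.17), in the first case opposite in direction to the regulator.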

How the data were processed

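Per the labels, polyA RNA from pools of 18 hpf embryos was sequenced as 3 mutant and 3 wildtype libraries. The authors aligned reads with RSEM 1.2.28 to the DanRer7 transcriptome, removed ribosomal RNA and deposited unnormalized RSEM expected counts, in which a read that fits several transcripts is divided between them. The submitters' processing notes also name GRCz10, and the deposited DESeq2 comparison (fold changes and p-values) was not used. Columns carry a genotype and a letter, the labels a replicate number, so columns were assigned to genotypes and named by letter. Whether replicates are separate pools of embryos is not given in the sources used here, so p-values measure the spread between these libraries, which may be technical.

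Expected counts were rounded. Genes passing edgeR's filterByExpr (20021 of 23150) were scaled by TMM and tested with glmQLFit and glmQLFTest of edgeR 4.0.16 (dispersions from estimateDisp, R 4.3.3) with Benjamini-Hochberg adjustment. The standard error is the size of the log2 fold change divided by the square root of F, and 95% intervals use the test's degrees of freedom. A gene differed at an adjusted p under 0.05. The 12 other settings were DESeq2's size factors, upper-quartile scaling, DESeq2 1.42.0's Wald test, limma 3.58.1 (voom), no filter, a filter requiring over 1 CPM in 3 or more libraries, and each library left out in turn.

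Named genes were the 7 regulators, *dusp6*, *dusp2*, up to 4 genes per direction and list with the smallest p, *nkx2.5*, *myl7*, *vmhc*, *gata1a*, *mef2ca*, *tbx5b* and *tbx1*, the 2 nearest patterns per regulator, and others given for context after their values were seen. Regulators and lists were chosen with earlier results of these data known. List genes were matched by symbol or synonym (RefSeq gene table, GRCz12tu), and no sequence of the regulators was used here. The analysis was tested on simulated counts.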

Additional observations from a re-analysis of the deposited data

How the results depend on the processing

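The number of regulators that differed was 5, and 4 or 5 under the 12 other settings, where *gata4* was the one lost. *gata4* kept its direction, with a log2 fold change of 0.64 in DESeq2's Wald test (adjusted p = 0.059) and 0.60 to 0.70 with each library left out. *gata6* turned to -0.079 without mutant D and ran from there to 0.24 with each library left out. *nkx2.5* ran from -0.0080 to 0.19 and *myl7* from -0.074 to 0.15 in the same way, each turning once, without wildtype A and wildtype B. The fold change of *tbx5a* exceeded 2 in every setting run. Over all genes tested, 992 met the 2-fold requirement, and 552 did with the filter requiring over 1 CPM in 3 or more libraries, which tests 16793 genes. No scaling moved the median log2 fold change of all genes by over 0.1. No paired analysis was possible because the columns of the count table carry letters, not the replicate numbers of the labels. Low counts limit *gata4* most among the regulators, and *tbx5b*, *zfpm2a*, *myh6* and *sox17* among the other genes named. They also limit *fgf24* (38 to 118 counts per library), *cmlc1* (39 to 125), *pdx1* (53 to 87) and *nkx2.5* (56 to 91).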
